A study of Homo sapiens with 4 samples.

Results

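ETS family transcription factors were examined in MDA-MB-231 Fluc cells, a triple-negative breast cancer line that carries a firefly luciferase gene. The members were the genes whose symbol in the deposited table is ETS1, ETS2, ELK1, ELK3, ELK4, ETV1, ETV4, ETV5, ETV6 or ELF1. Presence in the table was part of how members were chosen, so finding all 10 among its 13957 genes is not a result. The table rests on RNA-seq of duplicate samples that received 50 μM cordycepin (3′ deoxyadenosine) for 2 h and of 2 controls that received the solvent, DMSO. All 4 samples therefore share the parental line, the luciferase insertion and DMSO as solvent, and no label says whether the duplicates came from separate cultures. The table gives 1 mean level per gene, as log2 CPM (read counts scaled by library size, on a log2 scale), and no value per sample. Its form is that of a mean over all libraries of the comparison, so a level given here mixes cordycepin and DMSO and is not the level of either condition. The depth of each library and the spread between duplicates are unknown, and no level carries an SD or n. The remaining measurements of the table are the authors' own comparison of cordycepin with DMSO, which was not used here, so no effect of the treatment on any ETS gene is given. The comparison that the design implies could not be tested, because it needs values per sample.

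ETS factors share a DNA-binding domain, the ETS domain, which recognises a GGAA core and flanking bases. Many of them lie downstream of growth factor signalling: ERK phosphorylates ELK1, ELK3 and ELK4, which bind with the serum response factor SRF at immediate early genes, and it also phosphorylates ETS1 and ETS2. The PEA3 subfamily, ETV1, ETV4 and ETV5, is held down at the transcriptional level by the repressor capicua and at the protein level by COP1-dependent degradation. ETV6 is a transcriptional repressor, and ELF1 is an activator best known from blood cells. In breast cancer, ETS1 and the PEA3 factors have been studied mainly for their link with invasion and protease genes.

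As the GGAA core is what these proteins bind, the promoters of the members themselves were searched for it. RefSeq windows (GRCh38.p14) from 250 bases before to 50 bases after a start site were matched by symbol for 7 members. ETS1, ETV4 and ETV5 had no window in the table of promoters. The window nearest to the start of the GENCODE canonical transcript was used for each gene. It lay at that start for ELK3, ELK4, ETS2, ETV1 and ETV6 and 41 bases away for ELK1, but 36417 bases away for ELF1, so the ELF1 window belongs to another start of the gene. The sequences below run 5′ to 3′ on the strand of the gene and show a stretch of 30 bases that lies upstream of the start. Capitals mark the 8-base ETS site CCGGAAGT where there is one, and otherwise the GGAA core nearest to and upstream of the start, written as TTCC where the core is on the opposite strand.
ELK4 (chr1:205632015-205632044, minus strand): cagcccctcccCCGGAAGTgacgtgtagcg
ELK1 (chrX:47650680-47650709, minus strand): cacagctctgtagGGAAgggcccgtccccc
ELK3 (chr12:96194302-96194331, plus strand): gggtggccgcgcaGGAAgcggggcgggtgg
ETS2 (chr21:38805854-38805883, plus strand): cggccgtccctccTTCCtcctccctcctcc
ETV1 (chr7:13989677-13989706, minus strand): gaggagaagtagaGGAAaaaccaccgaatt
ETV6 (chr12:11649644-11649673, plus strand): ttaagaggcagagctcagtgctgGGAAttc
ELF1 (chr13:40982927-40982956, minus strand): aagtgctgtttccTTCCtgttgcttgcaag

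Among these 7 genes, ELK4 was the one with the full site CCGGAAGT, which began 22 bases before its start. Counting every RefSeq start, 1 of 16 windows of the members (6.25%) held this site on either strand, against 7.59% of the 14304 windows of genes in the table. Some member windows overlap, such as those of the ETV1 starts at 13990702 and 13990706, so the 16 are not independent. Genes with several starts weigh more in these shares. The GGAA core was found in 15 of 16 member windows and in 95.2% of all windows, so a match to the core alone was the rule for promoters of this length. Each CCGGAAGT also counts as a GGAA core. In the nearest windows the number of cores ranged from 2 in ELK3 to 7 in ETS2, against a median of 3 over all windows. A CArG box, the SRF-binding motif, was found in 0 member windows and in 1.12% of all windows. The TATAAA motif was found in 1 window, at a further start of ELF1, and in 5.98% of all windows. GC content of the nearest windows ran from 34.7% in ELF1 to 83.7% in ELK3, with a median of 65.0% over all windows. These matches describe letters in a window, and binding was not measured.

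**Figure D1:**
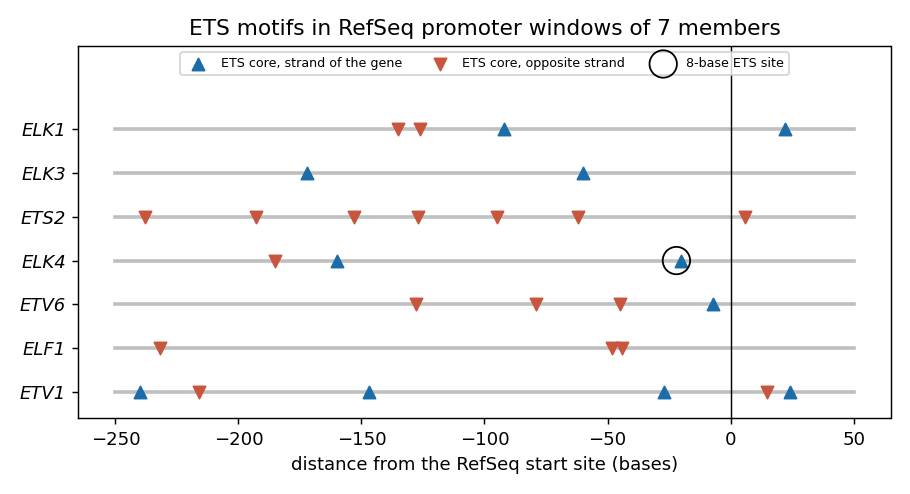
ETS motifs in the RefSeq promoter window nearest to the canonical start of 7 members, by distance from the start site in bases. Triangles mark GGAA cores on either strand and the circle marks the CCGGAAGT site of ELK4, 22 bases before the start; ETS2 has 7 cores and ELK3 has 2.

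Levels of different genes were compared per kilobase, as the mean log2 CPM less the log2 of the gene's length in the table in kilobases. On this scale the members ranged from 1.75 to 5.13, with a median of 3.38, against a median of 2.43 over all genes of the table. Of the 10 members, 7 lay above the median gene, 4 lay in the highest 25% of genes and 0 in the lowest 25%. The median percentile of the members was 67.0. The order from the highest level to the lowest was ELK1, ELK3, ETV4, ETS1, ETV5, ETS2, ELK4, ETV6, ELF1 and ETV1. As each gene has a single mean, it could not be judged which neighbours in this order differ by more than the spread between samples. After conversion to linear values, the 4 highest members made up 73.3% of the summed level of all 10, and the 3 lowest made up 7.73%. These shares hold for the deposited length. With coding length and without division by length, ELK4 took the place of ETV4 among the 4 highest.

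**Figure D2:**
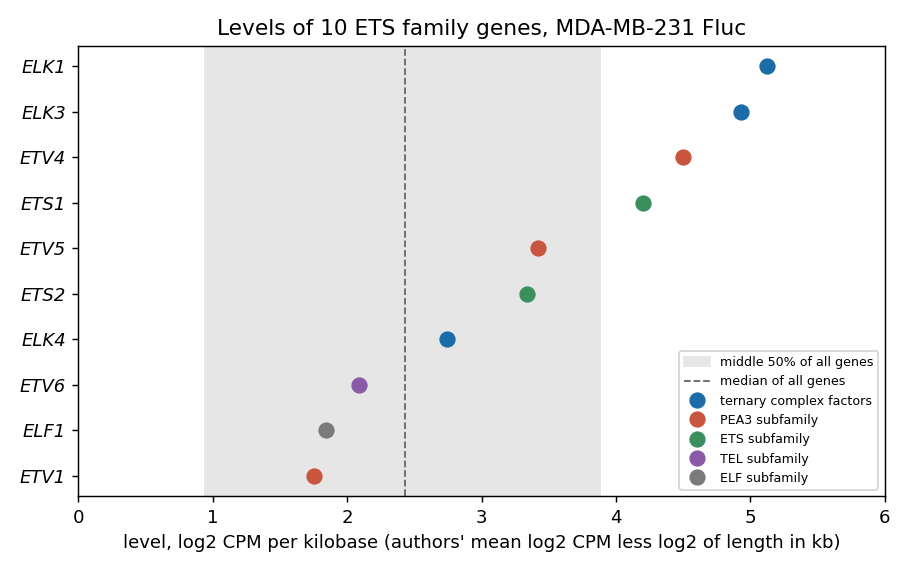
Levels of the 10 members in log2 CPM per kilobase, computed from the authors' mean log2 CPM and the deposited gene length, ordered from high to low and coloured by subfamily. The grey band holds the middle 50% of all genes and the dashed line their median, 2.43; ELK1, ELK3, ETV4 and ETS1 lie above the band, from 4.20 to 5.13.

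The ternary complex factors, which carry the signal from ERK to SRF-bound promoters, were the highest group by median level per kilobase. ELK1 (chromosome X, 47635521 to 47650604, minus strand) had a mean of 6.89 log2 CPM over a gene model of 3398 bases. This gave 5.13 log2 CPM per kilobase, at percentile 89.0 of all genes. ELK3, also known as Net and able to act as a repressor, lies on chromosome 12 (96194375 to 96269824, plus strand) and had the highest mean of the members before division by length, at 7.14 log2 CPM. Over 4644 bases this gave 4.93 log2 CPM per kilobase (percentile 87.4), which was 0.20 below ELK1. ELK4, also known as SAP-1 (chromosome 1, 205597556 to 205632011, minus strand), had a mean of 6.35 log2 CPM spread over 12191 bases, the longest model among the members. Its level per kilobase was 2.74 (percentile 55.8), which made ELK1 5.21-fold and ELK3 4.54-fold higher than ELK4. These distances rest on the long ELK4 model: per coding length they were 1.46-fold and 1.83-fold, and without division by length 1.45-fold and 1.73-fold. Together the ternary complex factors made up 49.7% of the summed linear level of the members per kilobase of deposited length. SRF itself, their partner on DNA, had a level of 5.45 log2 CPM per kilobase (percentile 91.1), above every member.

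PEA3 factors had the widest range of the subfamilies per kilobase of deposited length, 2.74 on the log2 scale. The ternary complex factors, also 3 genes, had a range of 2.38. A range depends on the number of genes, and it is 0 by construction for ETV6 and ELF1, each alone in its subfamily here. Per coding length and without division, ETS1 and ETS2 were further apart, by 1.33 and 1.38 against 1.27 and 1.29 within the PEA3 factors. ETV4 (chromosome 17, 43527844 to 43579620, minus strand) had 6.31 log2 CPM over 3515 bases, or 4.50 log2 CPM per kilobase (percentile 82.9). ETV5 (chromosome 3, 186046314 to 186110318, minus strand) had 5.95 log2 CPM over 5773 bases, or 3.42 per kilobase (percentile 67.7). ETV1 (chromosome 7, 13891229 to 13991425, minus strand) was the lowest member per deposited length, with 5.02 log2 CPM over 9615 bases and 1.75 log2 CPM per kilobase (percentile 37.9). ELF1 was the lowest member with canonical or coding length and without division. ETV4 was thus 2.11-fold above ETV5 and 6.69-fold above ETV1 per kilobase. Per coding length ETV4 was 1.35-fold above ETV5, and without division by length 1.28-fold. Without division by length the distance from ETV4 to ETV1 was 1.29 on the log2 scale rather than 2.74, as the ETV1 model is the longer one. This subfamily made up 25.3% of the summed linear level per kilobase of deposited length. CIC, the gene of the repressor capicua, had 3.23 log2 CPM per kilobase (percentile 64.4), and COP1, whose product takes part in the degradation of PEA3 proteins, had 2.89 (percentile 58.4).

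ETS1, the founding member of the family (chromosome 11, 128458761 to 128587558, minus strand), had a mean of 7.04 log2 CPM over 7149 bases. Per kilobase this was 4.20 log2 CPM, at percentile 79.5. Its close relative ETS2 (chromosome 21, 38805183 to 38824955, plus strand) had 5.65 log2 CPM over 4977 bases and 3.34 log2 CPM per kilobase (percentile 66.2). ETS1 was 1.82-fold higher than ETS2 per kilobase. ETV5 and ETS2 stood next to each other in the order, with a difference of 0.083 on the log2 scale.

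The repressor gene ETV6, also known as TEL, has the longest locus of the members, 245.704 kb on chromosome 12 (11649674 to 11895377, plus strand). It had 4.94 log2 CPM over a model of 7230 bases, or 2.09 log2 CPM per kilobase (percentile 43.8). ELF1 (chromosome 13, 40931924 to 41061440, minus strand) had the lowest mean of the members before division by length, 3.996 log2 CPM, and a level of 1.85 log2 CPM per kilobase over 4441 bases (percentile 39.5). Per deposited length ETV6, ELF1 and ETV1 were the 3 members below the median gene, and they lay within 0.33 of each other on the log2 scale per kilobase. Per coding length and without division ELF1 was the 1 member below it, and with canonical transcript length ELK4 (percentile 49.2) joined these 3.

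The length that a level is divided by matters for this family, since its transcripts differ mainly outside the coding sequence. Coding lengths of the canonical transcripts ran from 1221 bases in ELK3 to 1857 bases in ELF1. Their 3′ UTRs ran from 676 bases in ETV4 to 8606 bases in ELK4, and in 7 of 10 members the 3′ UTR was over 50% of the canonical transcript. In ELK4 it was 83.7% of the transcript, and in ETV4 it was 29.0%. The length in the table was that of all annotated exons merged in 9 of 10 members, and the canonical transcript covered between 66.4% of it (ETV4) and 90.5% (ELK3). Dividing by coding length, ELK4 rose from percentile 55.8 to 76.7 and from place 7 to place 4, and ETV4 went from percentile 82.9 to 73.7 and from place 3 to place 5. ELK3 was then highest and ELK1 next. The percentiles per coding length were over 11604 genes, against 13957 genes for the deposited length, so the reference set changed as well. Reads in 3′ UTRs are counted in the mean, so a level per coding base is raised in genes with a long 3′ UTR. Which isoforms were present was not measured.

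**Figure D3:**
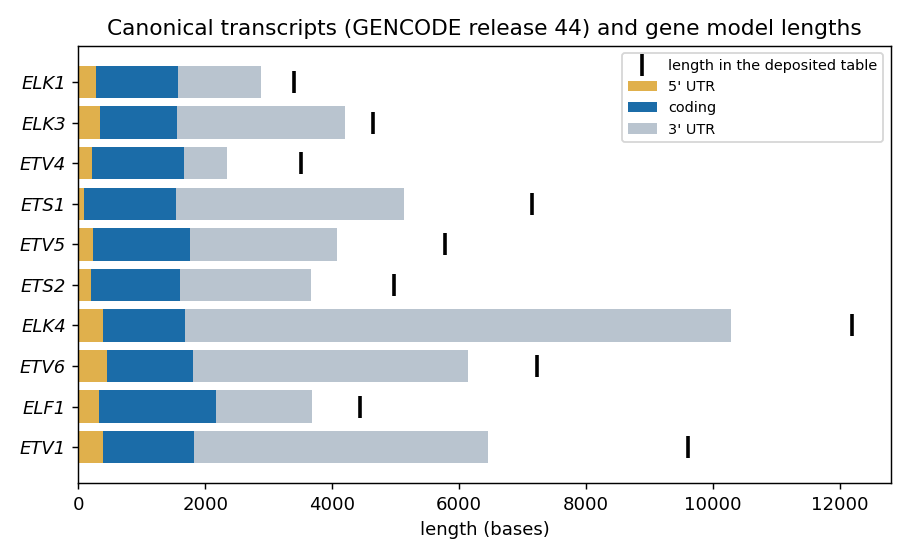
Lengths in bases of the 5′ UTR, coding sequence and 3′ UTR of the canonical GENCODE transcript of each member (stacked bars), with the gene length of the deposited table as a black tick. The members differ little in coding length and widely in 3′ UTR, from 676 bases in ETV4 to 8606 in ELK4.

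**Figure D4:**
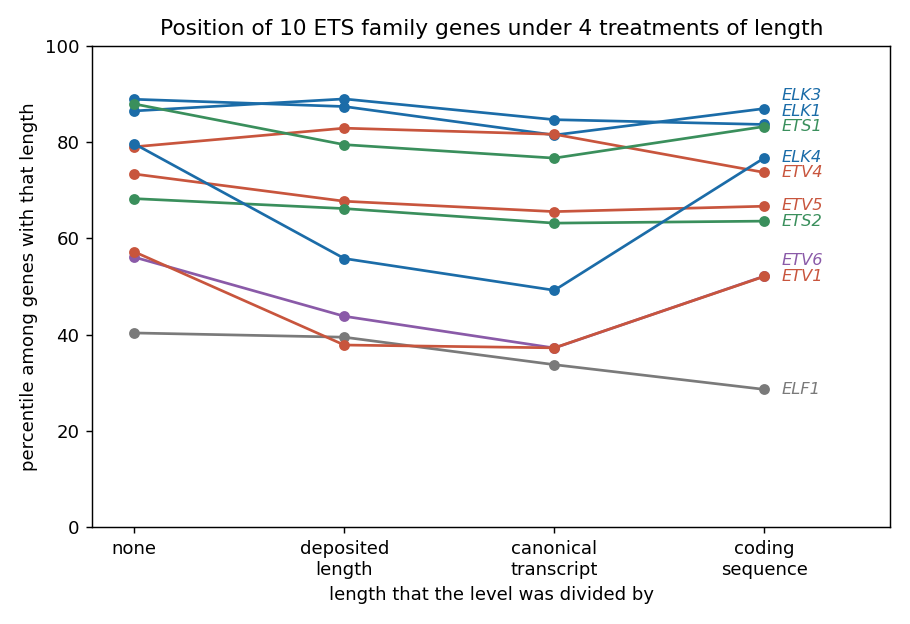
Percentile of each member among all genes that have the length in question, with no division by length and with division by the deposited length, the canonical transcript length or the coding length; each line is 1 gene, coloured by subfamily. ELK1, ELK3 and ETS1 stay above percentile 75 throughout, and ELK4 moves between 49.2 and 79.7.

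Because the members resemble each other in the ETS domain, their transcripts were searched for stretches that a read could not assign to 1 gene. All annotated transcripts of each member were cut into windows of 75 bases, the length of a read. In 8 of 10 members 0 windows occurred in a transcript of another gene on the same strand, so no 2 members shared a window. The exceptions were ETV5, with 91 of 5921 windows (1.54%) shared with DGKG, and ELK4, with 8 of 12114 (0.066%) shared with PLEKHH1. Windows found in reverse complement in another gene were 2.84% for ELK3, 1.83% for ELK4 and 0.77% for ETS2. Annotated exons of ETV5 and DGKG overlap by 164 bases on the same strand. On the opposite strand, exons of other genes overlap those of ELK3 by 209 bases, ELK4 by 455, ETS2 by 112 and ETV4 by 68. The ETV4 overlap is shorter than a window, so this search could not show it. The libraries were made with a stranded kit, and whether strand was used in counting is not given in the sources used here.

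Of the 28 human ETS genes listed, 17 were in the table, and the other 11 were not analysed here. The 7 that are not members had a median level of 2.50 log2 CPM per kilobase, from 0.37 for ELF2 to 3.96 for ELF4. ERF, a repressor that ERK drives out of the nucleus, had 3.68 log2 CPM per kilobase, and GABPA, a regulator of nuclear genes for mitochondrial proteins, had 2.50. The epithelial ETS genes SPDEF and EHF had 3.35 and 1.39 log2 CPM per kilobase, and the repressor gene ETV3 had 1.15. Per kilobase of deposited length ELK1, ELK3, ETV4 and ETS1 were above each of these 7, but before division ELF4 (6.35 log2 CPM) was above ETV4 (6.31).

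A list of 20 partners and regulators of ETS factors, written from general knowledge, had 19 genes in the table and a median percentile of 49.0 per kilobase. Among kinase genes of the ERK cascade, MAP2K2 had 5.09, MAP2K1 4.82 and MAPK3 3.09 log2 CPM per kilobase. The SRF coactivators MRTFA and MRTFB, which compete with the ternary complex factors for SRF, had 1.33 and 0.49. The acetyltransferase genes CREBBP and EP300, coactivators of several ETS proteins, had 1.83 and 2.13, and the Mediator gene MED23, which ELK1 contacts, had 2.38. Among corepressor genes, NCOR1 had 3.30 and SIN3A 2.38 log2 CPM per kilobase. The lowest gene of the list was FBXW7, a ubiquitin ligase subunit, at 0.27, and the highest was SRF.

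The labelled cell line was compared with marker genes. Of 8 mesenchymal markers of this line, 7 were in the table, and their median percentile was 97.6. The highest were the caveolin gene CAV1, at 8.30 log2 CPM per kilobase, VIM, at 8.08, and CD44, at 7.25. The transcription factor genes SNAI2 and ZEB1 lay near the median gene, at 2.56 and 2.34 (percentiles 52.4 and 48.2). The luminal epithelial list had 7 of 9 genes in the table, with a median percentile of 55.4. The epithelial cadherin gene CDH1 had 1.07 log2 CPM per kilobase and FOXA1 had 0.19, whereas the keratin genes KRT8 and KRT18 were high, at 6.33 and 6.50. Of the blood cell and endothelial markers, 0 of 7 were among the genes analysed.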

How the data were processed

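The analysis used 1 deposited table of expression in MDA-MB-231 Fluc cells, from 2 cordycepin and 2 DMSO samples. The authors sequenced ribo-depleted stranded libraries as 75 bp paired-end reads. Their methods name mapping to GRCh38.p13 and counting with rsubread, while the submitters' processing notes list TopHat, HTSeq, DESeq and Cufflinks on hg38. Versions and the filter on low counts are not given in the sources used here. The authors deposited, for each gene, a mean level on the log2 scale (log2 CPM), a gene length and 4 columns of their own comparison of cordycepin with DMSO (log2 fold change, F statistic, p-value and adjusted p-value), which were not used. The table holds 0 columns per sample, so depth, intervals and tests could not be given.

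Level per kilobase was the mean log2 CPM less log2(length/1000). A percentile is the share of genes at or below a gene. Lists and members were chosen with earlier results of these data known. All members are named; of other lists, the highest, the lowest and genes a result turns on, and further genes were named after their values were seen. A few listed genes are not reported here. GENCODE release 44, on the same genome build, held 99.7% of the gene IDs, and 82.1% of those had the same start and end, among them all 10 members. Levels per kilobase, the order of percentiles and the search for CCGGAAGT were tested on simulated data. The simulated sequences held only A and C around the planted site, so the site could not arise elsewhere. The other motifs were not tested in this way. Python 3.11.15, numpy 2.4.6, pandas 2.3.3 and matplotlib 3.10.9 were used.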

Additional observations from a re-analysis of the deposited data

How the results depend on the processing

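The median percentile of the members, 67.0 per deposited length, was 67.7 with all exons merged, 70.2 with coding length, 76.2 with no division by length, 66.1 among protein-coding genes and 57.0 among genes above the lowest 25% of mean expression. With canonical transcript length, an alternative chosen after the data were seen, it was 64.4. The reference set was 13957 genes for the deposited length, 11604 for coding length and 13922 for merged exons and canonical transcripts. The distance from the highest to the lowest member, 3.37 on the log2 scale, was 3.37 with all exons merged, 3.75 with coding length, 3.15 with no division by length and 3.25 with canonical transcript length. All 10 members were kept under each alternative. The order of members had 0 changes of place with all exons merged, 5 with canonical transcripts, 9 with coding length and 10 without division. The merged exons had the deposited length in 9 of 10 members, so the order and the distance could hardly change with that alternative. No spread between samples was available to set these shifts against. No paired analysis was possible because the table holds no values per sample, and for the same reason normalization, a filter on low counts and leaving out a replicate were not run.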

Other observations

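Genes widely described as targets of ETS or ternary complex factors were read from the same means. Of the 16 listed, 14 were in the table, with a median of 3.29 log2 CPM per kilobase (percentile 65.3), and 10 of them lay above the median gene. The cyclin gene CCND1 was highest, at 7.51 log2 CPM per kilobase, followed by PLAU, which encodes urokinase, at 6.16, and the survival gene MCL1, at 5.52. MYC had 3.98, the urokinase receptor gene PLAUR 3.66, and the ERK phosphatase gene DUSP6 3.52. The lowest were FOS, at -0.70, the telomerase gene TERT, at -0.24, and the early growth response gene EGR1, at 1.42. Before division by length FOS had a mean of 0.98 log2 CPM, near the lowest mean of any gene in the table, 0.56. The collagenase gene MMP1 had 1.85 log2 CPM per kilobase. These means also mix both conditions, and no target was tied to a given ETS factor.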
